A study of Mus musculus with 12 samples.

Results

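The major urinary proteins (MUPs) are encoded by a cluster of Mup genes on mouse chromosome 4, and 8 of them are described here: Mup1, Mup2, Mup3, Mup7, Mup11, Mup17, Mup20 and Mup21. They were found by gene symbol among the 45777 genes of the table, and each symbol occurred once. The table held 30 rows whose symbol starts with Mup, 22 of them named as genes and 8 as pseudogenes. Liver RNA was sequenced from 12 male C57BL/6 mice aged 10 to 12 weeks, 3 in each of 4 groups: WT given vehicle, WT given APAP, Gα12KO (Gα12-/-) given vehicle and Gα12KO given APAP. Acetaminophen (APAP) relieves pain and in overdose damages the liver. Per the study's methods it was injected once at 300 mg/kg after an overnight fast, the liver was taken after 6 h, and the KO mice were set beside WT littermates of the same age. No cell type or promoter is named that would limit the deletion of Gna12, which encodes Gα12. Gna12 had 1193 to 4373 counts in the 6 WT livers and 2472 to 4003 in the 6 livers labelled KO. Since it was not lower under the KO label, the groups are called by their labels throughout.

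MUPs are small secreted proteins of the lipocalin family, barrel-shaped carriers of small hydrophobic molecules. Hepatocytes of adult male mice make them in large amounts, and they pass through the blood and the kidney into the urine, where they hold and slowly release volatile pheromones. Their genes are known to depend on the pulsatile growth hormone secretion of males, which acts through the growth hormone receptor, JAK2 and STAT5B, and on thyroid hormone and glucocorticoids. MUP20, also called darcin, is itself a male pheromone that attracts females.

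The livers held 49737950 to 69566079 counted reads each. The 6 hepatocyte markers Alb, Ttr, Apoa1, Cps1, Cyp2e1 and Hnf4a together summed to 64161 to 96493 CPM (counts scaled to a common library size), so the label of liver tissue held. Of 5 markers of kidney and of glands, Aqp2, Slc12a1 and Lcn11 had 0 counts in all 12 livers, Pax8 had at most 5 and Umod at most 6. WT APAP replicate 1 stood apart. Its 10 blood and leukocyte markers summed to 13041 CPM, against 252 to 673 in the other 11 livers, and its Hba-a1, a hemoglobin gene, had 238212 counts, against 2551 to 7713. Mup results that rest on this liver are also given without it. In bulk tissue, fewer hepatocytes and less Mup RNA per hepatocyte cannot be told apart.

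All 8 genes lie on the minus strand of chromosome 4 (GRCm38.p6, RefSeq), within the 2.19 Mb from 59956804 to 62150841 that hold the 22 Mup genes. Mup7 (gene ID 100041658) spans 60066469 to 60070475, Mup2 (17841) 60135913 to 60139977, Mup1 (17840) 60498012 to 60501960 and Mup11 (100039028) 60658466 to 60662432. Further along lie Mup17 (100039206) at 61591929 to 61595865, Mup20 (381530) at 62011337 to 62054143, Mup3 (17842) at 62083476 to 62087317 and Mup21 (381531) at 62147832 to 62150841. All have 7 exons in the annotation except Mup21, which has 6. Counts were made over exons that these genes share almost letter for letter, so the same 100 coding bases of each gene are shown from the GENCODE transcripts of GRCm38, 5′ to 3′, aligned without gaps. Capitals mark the bases that differ from Mup1, and the run starts at coding base 13 of Mup1.
Mup1: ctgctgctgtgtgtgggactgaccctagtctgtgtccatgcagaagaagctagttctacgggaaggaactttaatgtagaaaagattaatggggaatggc
Mup2: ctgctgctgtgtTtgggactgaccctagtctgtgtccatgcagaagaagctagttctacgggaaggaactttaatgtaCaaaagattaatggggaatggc
Mup3: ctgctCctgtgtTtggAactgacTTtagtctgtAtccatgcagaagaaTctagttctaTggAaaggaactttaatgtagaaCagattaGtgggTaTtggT
Mup7: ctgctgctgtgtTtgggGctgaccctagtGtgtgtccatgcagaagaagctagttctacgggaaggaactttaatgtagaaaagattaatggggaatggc
Mup11: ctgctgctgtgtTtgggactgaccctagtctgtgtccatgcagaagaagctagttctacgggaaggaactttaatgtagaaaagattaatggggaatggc
Mup17: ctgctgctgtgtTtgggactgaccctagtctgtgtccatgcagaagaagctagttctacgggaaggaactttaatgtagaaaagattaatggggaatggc
Mup20: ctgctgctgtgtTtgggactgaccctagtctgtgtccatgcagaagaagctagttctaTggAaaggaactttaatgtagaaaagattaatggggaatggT
Mup21: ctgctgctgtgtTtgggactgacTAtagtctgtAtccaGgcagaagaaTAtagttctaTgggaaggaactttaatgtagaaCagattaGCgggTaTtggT
In this stretch Mup11 and Mup17 were letter for letter the same and differed from Mup1 at 1 position, Mup2 at 2, Mup7 at 3, Mup20 at 4, and Mup3 and Mup21 at 14 each.

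Over the whole coding sequence, Mup1, Mup2, Mup7, Mup11 and Mup17 were 98.4% to 99.4% identical to each other. Mup20 was 90.1% to 91.4% identical to these 5 copies, Mup3 82.4% to 83.7% and Mup21 83.7% to 84.8%, while Mup3 and Mup21 were 94.8% identical to each other. The share of all 100-base windows of the transcript that also occur exactly in another Mup gene was 97.3% for Mup2, 87.2% for Mup1, 87.1% for Mup7, 83.5% for Mup11 and 59.4% for Mup17. It was 38.8% for Mup20, shared with Mup-ps19 alone, and 4.50% for Mup21 and 2.94% for Mup3, shared with each other alone. The values of the 5 copies are therefore uncertain one by one, since a read can belong to several of them, whereas Mup3 and Mup21 are nearly separate from the rest. The labels name a stranded library kit, and whether the counting used the strand is not stated.

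Promoters were available for 6 of the 8 genes (RefSeq, GRCm38.p6, 300 bases around the start site), all but Mup1 and Mup20. The motif TATATAAG, a TATA box, was found on either strand in 5 of these 6 (Mup2, Mup3, Mup11, Mup17 and Mup21), against 1.01% of all 32851 mouse promoters of the same length. Where aligned, the promoters of Mup2, Mup11 and Mup17 were 98.3% to 98.9% identical and those of Mup3 and Mup21 92.9%. The 5 are thus not separate finds. The promoter of Mup7 aligned with the first 3 over 166 to 194 columns, against 275 to 298 among those 3. Whether this bears on its lack of the motif was not tested. The promoters of Mup17, one of the 5 copies, at chr4:61595783-61596082, and of Mup3, at chr4:62087268-62087567, both minus strand, are shown for this shared box, which is in capitals. It starts 11 bases before the gene start of Mup3 and, in Mup17, 25 bases before the start site that the promoter table used, which lies inside the gene span given above.
Mup17: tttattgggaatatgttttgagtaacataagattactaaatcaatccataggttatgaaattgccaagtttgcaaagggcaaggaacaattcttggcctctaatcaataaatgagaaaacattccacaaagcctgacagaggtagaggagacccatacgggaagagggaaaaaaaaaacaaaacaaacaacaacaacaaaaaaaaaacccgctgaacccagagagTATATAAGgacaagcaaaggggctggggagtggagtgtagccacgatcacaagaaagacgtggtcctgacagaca
Mup3: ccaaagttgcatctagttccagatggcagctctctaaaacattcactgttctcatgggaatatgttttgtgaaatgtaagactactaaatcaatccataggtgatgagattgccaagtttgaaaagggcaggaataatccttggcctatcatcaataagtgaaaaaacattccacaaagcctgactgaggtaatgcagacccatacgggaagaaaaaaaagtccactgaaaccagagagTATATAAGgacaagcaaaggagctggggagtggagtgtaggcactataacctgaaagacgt
The STAT5 motif TTCNNNGAA was in 0 of the 6 (8.30% of all promoters) and the C/EBP motif TTGCNNAA in 0 (10.8%). The glucocorticoid receptor motif TGTTCT, shorter than the others, was in those of Mup3 and Mup21 (19.0% of all promoters).

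The 8 genes took a large part of the liver's messenger RNA, from 2.74% to 8.66% of all counted reads. As a percent of all counted reads, their sum was 4.37, 3.47 and 6.81 in the WT livers with vehicle, in replicate order, and 8.66, 4.18 and 4.73 in those with APAP. Under the KO label it was 3.77, 4.98 and 7.75 with vehicle and 3.52, 3.21 and 2.74 with APAP. The 3 KO-labelled APAP livers lay below every other liver but 1, WT vehicle replicate 2, and below all 3 KO-labelled vehicle livers, while the WT groups overlapped. Group means were 4.88% ± 1.73 (SD, n = 3) and 5.85% ± 2.44 in WT livers with vehicle and APAP, and 5.50% ± 2.04 and 3.16% ± 0.393 under the KO label. With all 30 Mup rows the share reached 5.49% to 18.1% of the counts and 10.3% to 27.8% of the deposited TPM, a unit that allows for transcript length. The ratio of the mean share after APAP to that with vehicle was 0.261 on the log2 scale in WT livers (-0.13 without WT APAP replicate 1) and -0.80 under the KO label, where it lay between -1.01 and -0.47 with 1 liver left out. This sum is a description with no test, because the genes were chosen with results known.

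**Figure D1:**
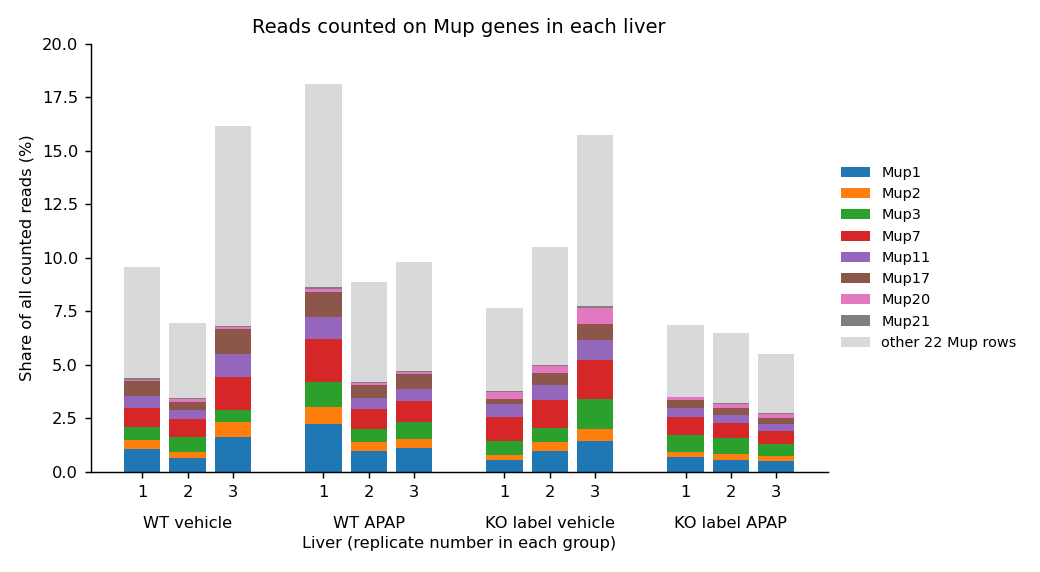
Bars show, for each of the 12 livers, the percent of all counted reads that fell on each of the 8 Mup genes (colors) and on the other 22 Mup rows (grey), grouped by label and treatment. The summed height runs from 5.49% in KO label APAP replicate 3 to 18.1% in WT APAP replicate 1, and the 3 KO label APAP bars lie between 5.49% and 6.86%.

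Compared per length over the 12 livers, Mup7 was the highest of the 8 with 18135 ± 5687 TPM (SD, n = 12), followed by Mup1 with 17674 ± 7169, Mup3 with 13320 ± 3371, Mup17 with 10956 ± 4980, Mup11 with 10834 ± 3665, Mup2 with 7102 ± 2921, Mup20 with 3782 ± 3016 and Mup21 with 1091 ± 422 TPM. Neighbors in this order changed places between livers, and Mup7 exceeded Mup1 in only 7 of 12 livers, Mup1 exceeded Mup3 in 7, Mup3 exceeded Mup17 in 9 and Mup17 exceeded Mup11 in 5. Mup11 was above Mup2 in all 12, Mup2 above Mup20 in 10 and Mup20 above Mup21 in 11. By mean TPM over all genes, Mup7 ranked 3, Mup1 4, Mup3 7 and Mup21, the lowest of the 8, still 114. Mup20 varied most between livers, with a highest TPM 9.78 times its lowest, whereas Mup3 varied least, by 2.37 times.

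The 5 copies varied together over the livers and Mup20 did not follow them. Between pairs of the 5 copies, Pearson's r of log2 CPM over the 12 livers was 0.83 to 1.00, and Mup1, Mup2 and Mup17 were closest to each other. Mup3 and Mup21, the pair of genes most alike in sequence outside the copies, had an r of 0.90. Mup20 had an r of -0.04 to 0.44 with the 5 copies and of 0.62 with Mup3. These correlations are descriptions over livers that share a scaling, and part of the likeness between copies can be reads that fit several of them, which was not tested. They include WT APAP replicate 1 and were not computed without it. Mup-ps19, the pseudogene that shares windows with Mup20, had 29160 to 208813 counts and an r of 0.97 with it.

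**Figure D2:**
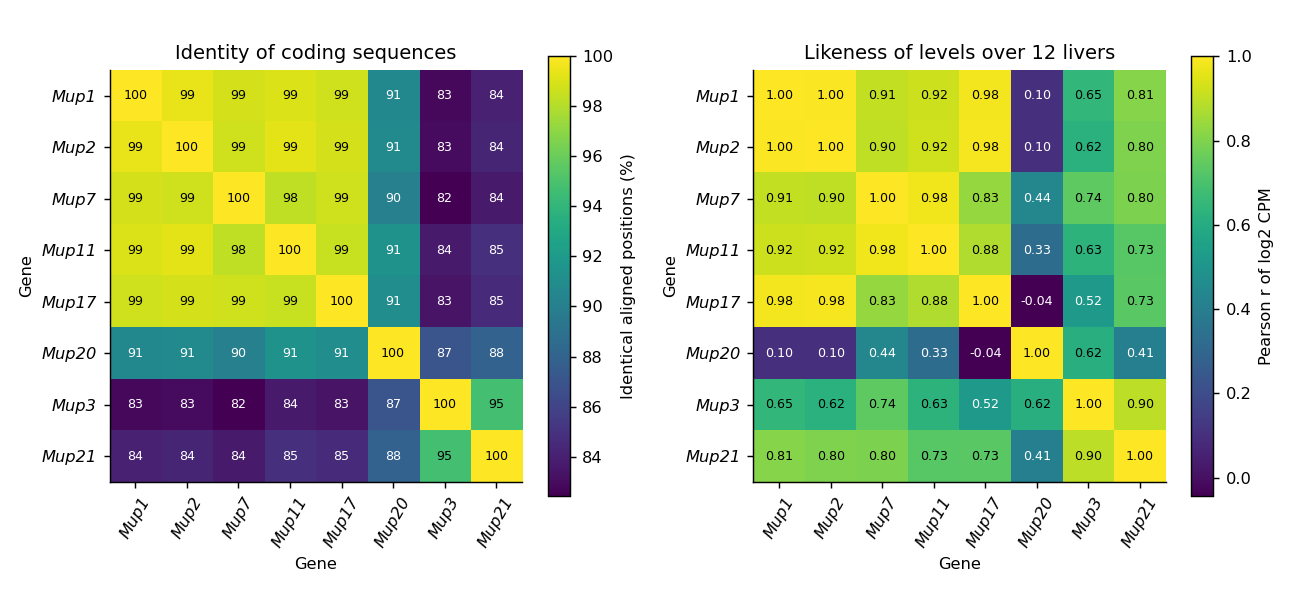
Left, percent of identical aligned positions between the coding sequences of each pair of the 8 Mup genes; right, Pearson r of log2 CPM for each pair over the 12 livers. The 5 copies form a block of identities of 98.4% to 99.4% and of r of 0.83 to 1.00, Mup3 and Mup21 pair up at 94.8% and r of 0.90, and Mup20 has r of -0.04 to 0.62 with the other 7.

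In WT mice, whether APAP changes Mup RNA was tested between 3 APAP and 3 vehicle livers, and none of the 8 genes passed. Mup7, given in TMM-scaled CPM (edgeR's scaling for library composition), was at 8921, 9275 and 16086 with vehicle and at 26862, 8590 and 9848 with APAP. Mup1 was at 10261, 7407 and 16842 with vehicle and at 29581, 9146 and 11112 with APAP. Mup3 was at 5880, 7884 and 5545 with vehicle and at 15972, 5405 and 7892 with APAP. In each of these genes WT APAP replicate 1 was far above the other 5 livers and the groups overlapped. Mup20 was at 613, 1845 and 931 with vehicle and at 2364, 585 and 919 with APAP. Mup21 was at 567, 482 and 367 with vehicle and at 1184, 428 and 504 with APAP. In both, WT APAP replicate 2 was within or below the range of the vehicle livers. The remaining 3 copies had the same order of livers after APAP, with Mup11 at 13702, 4784 and 5299, Mup17 at 15192, 5867 and 7156 and Mup2 at 10638, 3826 and 4308. By edgeR's quasi-likelihood test, adjusted by Benjamini-Hochberg over the genes of the table that were tested, 0 of 8 genes passed an adjusted p-value of 0.05, where 2.05% of the 15693 genes tested did. At an unadjusted p-value under 0.05, 0 of 8 passed (18.0% of all genes), and the groups overlapped for all 8 (24.9% of all genes did not overlap). DESeq2's Wald test called 0 of the 8, and of all 15693 genes 877 as higher and 536 as lower. The log2 fold changes ran from 0.18 (standard error, SE, 0.50) for Mup11 to 0.61 (SE 0.42) for Mup3, with a median of 0.41, where the median of all genes was 0.03. Leaving WT APAP replicate 1 out gave a median of -0.24, with 7 of 8 genes below 0, so the direction rested on that liver, in which the hemoglobin genes were also high.

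Under the KO label, 3 of the 8 genes were lower after APAP: Mup7, Mup11 and Mup20. Of all 15665 genes tested, 9.60% passed as lower and 22.6% in either direction. The groups did not overlap for 42.8% of all genes and for these 3 of the 8. Mup7 was at 9800, 13114 and 20286 CPM with vehicle and at 7523, 6274 and 5647 with APAP. Every APAP liver was below every vehicle liver, and the log2 fold change was -1.14, a 2.21-fold lower level (SE 0.29, edgeR adjusted p = 0.0253). Mup11 was at 5279, 6874 and 10101 CPM with vehicle and at 3569, 3593 and 2935 with APAP, also without overlap, and its log2 fold change was -1.13, a 2.19-fold lower level (SE 0.26, edgeR adjusted p = 0.0174). Mup20, the pheromone darcin, showed the largest difference. It was at 2873, 3252 and 7760 CPM with vehicle and at 1170, 1675 and 1767 with APAP. The groups did not overlap, and the log2 fold change was -1.58 (SE 0.39, edgeR adjusted p = 0.0224), a 3.00-fold lower level. Without KO vehicle replicate 3, its highest liver, it was -0.99 (edgeR adjusted p = 0.0287). The call of Mup20 was lost without KO APAP replicate 1 (edgeR adjusted p = 0.0748) or 3 (0.0565), that of Mup11 without KO APAP replicate 3 (0.0681), and that of Mup7 without KO vehicle replicate 2 (0.0603) or KO APAP replicate 2 (0.0563) or 3 (0.0910).

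The other 5 genes also had negative log2 fold changes under the KO label and did not pass. Mup1 was at 4905, 9763 and 15630 CPM with vehicle and at 5956, 5347 and 4636 with APAP, with a log2 fold change of -0.92 (SE 0.38, edgeR adjusted p = 0.115). Mup17 was at 2313, 5705 and 8535 CPM with vehicle and at 3285, 3022 and 2459 with APAP (log2 fold change -0.91, edgeR adjusted p = 0.145). In both, KO vehicle replicate 1 lay within or below the APAP livers. Mup2, at 1995, 3979 and 6640 CPM with vehicle and at 2305, 2336 and 2003 with APAP, and Mup21, at 294, 453 and 1234 with vehicle and at 351, 351 and 279 with APAP, overlapped through the same liver. Mup2 had a log2 fold change of -0.92, Mup21 of -1.01 and Mup3 of -0.53, with adjusted p-values of 0.116, 0.152 and 0.312 in the same edgeR test. Mup3, whose log2 fold change was nearest to 0, was at 6206, 6582 and 14990 CPM with vehicle and at 6854, 7086 and 5149 with APAP. Its high value with vehicle came from KO vehicle replicate 3 alone. Without that liver the log2 fold change was -0.18 for Mup21, 0.0025 for Mup3, -0.45 for Mup1, -0.42 for Mup2 and -0.44 for Mup17.

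The calls among the 8 are to be read against a comparison in which many genes changed. Of 15665 genes tested under the KO label, 22.6% passed in either direction and 9.60% passed as lower. At an unadjusted p-value under 0.05, 5 of 8 genes passed (Mup1, Mup2, Mup7, Mup11 and Mup20), against 37.1% of all genes, while 3 of 8 had groups without overlap, against 42.8% of all genes. The median log2 fold change of the 8 was -0.96, and that of all genes was -0.02. Among the other 22 Mup rows, 14 were lower and 0 higher (median log2 fold change -1.13). Of these 14, 7 are named as genes: Mup8, Mup13, Mup14, Mup16, Mup18, Mup19 and Mup22. The transcripts of these 7 share 77.8% to 100% of their 100-base windows with other Mup genes. They are thus not separate measurements, nor are the copies Mup1, Mup2, Mup7 and Mup11. Mup-ps19 was lower with a log2 fold change of -1.49 (SE 0.39, edgeR adjusted p = 0.0269). The number of the 8 called was 6 by DESeq2's Wald test, 0 with all 12 livers in one fit, 0 without KO APAP replicate 3 and 7 without KO vehicle replicate 1. In the same order, 1997 of 15665, 844 of 16509, 751 of 16072 and 946 of 16124 genes passed as lower.

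**Figure D3:**
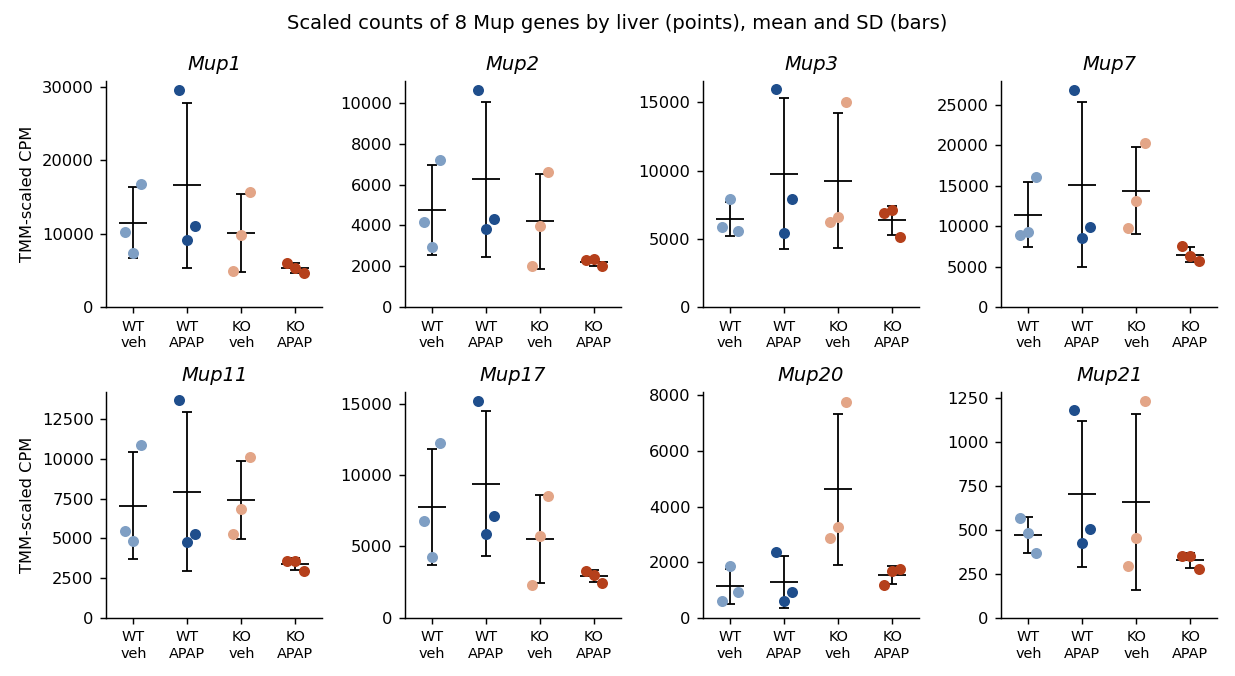
Each panel shows 1 Mup gene, with TMM-scaled CPM on a linear axis from 0; points are the 3 livers of each group, and the bars give their mean and SD. WT APAP replicate 1 is the highest WT APAP point in every panel, and the 3 KO label APAP points of Mup7, Mup11 and Mup20 lie below all 3 KO label vehicle points.

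Whether the genotype label mattered after APAP was tested between 3 WT and 3 KO-labelled APAP livers, the comparison the study made of injured livers. Mup17 was at 15192, 5867 and 7156 CPM in the WT livers and at 3285, 3022 and 2459 under the KO label, Mup1 at 29581, 9146 and 11112 against 5956, 5347 and 4636, and Mup2 at 10638, 3826 and 4308 against 2305, 2336 and 2003. All 3 WT livers were above all 3 KO-labelled livers in each. Mup7, Mup11 and Mup21 did not overlap either, while Mup3 and Mup20 did. There was thus no overlap for 6 of 8 genes, against 8.73% of the 16174 genes tested. Of these, Mup1, Mup2, Mup7, Mup11 and Mup17 are near-identical copies that can share reads. They are not separate measurements in this count or in the next ones. After the adjustment over all genes 0 of 8 passed in edgeR's quasi-likelihood test, where 0.0309% of all genes did. DESeq2's Wald test called Mup17 alone of the 8, and 21 of all genes as higher and 8 as lower. At an unadjusted p-value under 0.05, the same 6 of 8 genes passed in edgeR, against 3.31% of all genes. The log2 fold change of WT over the KO label was 1.70 (SE 0.38) for Mup17, 1.66 (SE 0.45) for Mup1, 1.52 for Mup2, 1.26 for Mup11, 1.24 for Mup7, 1.13 for Mup21 and 0.64 for Mup3, and it was -0.23 (SE 0.48) for Mup20 (edgeR adjusted p between 0.958 and 0.968). The median was 1.25, where that of all genes was 0.02. It fell to 0.55 without WT APAP replicate 1, when 7 of 8 genes had an unadjusted p-value under 0.05, 6 of them higher in WT livers and Mup20 higher under the KO label (log2 fold change -1.03). Without KO APAP replicate 3, 3 of 8 had such a p-value. The share of all genes with such a p-value was not counted when a liver was left out. The 3 KO-labelled APAP livers enter this comparison and the one above, so the values are not independent of each other.

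With vehicle, Mup20 was the one of the 8 genes that differed most between the labels. It was at 613, 1845 and 931 CPM in WT livers and at 2873, 3252 and 7760 under the KO label, without overlap. Its fitted level was 4.09-fold higher under the KO label, a log2 fold change of WT over the KO label of -2.03 (SE 0.52, unadjusted p = 0.00469, edgeR adjusted p = 0.505), between -2.59 and -1.43 with 1 liver left out. It did not pass, and over the alternatives the adjusted p-value ranged from 0.152 to 0.843. Of the 8 genes 0 passed, against 0.0262% of the 15262 genes tested. DESeq2's Wald test called 0 of the 8, and of all genes 62 as higher in WT livers and 75 as lower. Mup20 alone of the 8 had an unadjusted edgeR p-value under 0.05 (7.56% of all genes) and groups that did not overlap (14.0% of all genes). The other 7 had log2 fold changes from -0.52 for Mup3 to 0.50 for Mup17, and the median of the 8 was -0.20 (0.28 without KO vehicle replicate 3), where that of all genes was -0.01. Of Mup-ps19 the log2 fold change was -1.62 (SE 0.45, edgeR adjusted p = 0.525).

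**Figure D4:**
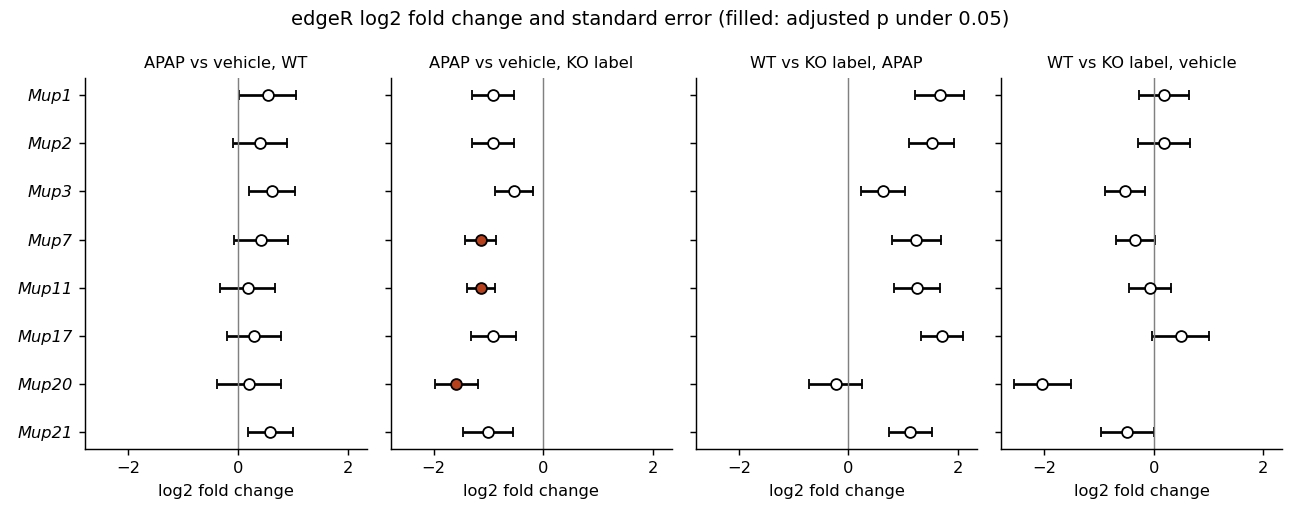
Points are edgeR's log2 fold changes of the 8 Mup genes in 4 comparisons of 3 against 3 livers, with bars of 1 SE; filled points passed an adjusted p-value of 0.05, and a value above 0 means higher in the group named first. The only filled points are Mup7, Mup11 and Mup20 in APAP vs vehicle under the KO label, and Mup20 lies apart from the other 7 in both comparisons between labels.

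The place of Mup20 within the family can be read without any scaling, as its share of the counts on the 8 genes. This share was 1.44%, 4.74% and 1.33% in the WT vehicle livers and 2.05%, 1.51% and 1.95% in the WT APAP livers. Under the KO label it was 8.53%, 6.54% and 9.11% with vehicle and 3.77%, 5.64% and 7.10% with APAP. WT vehicle replicate 2 was the only WT liver above the lowest KO-labelled liver. Mup17 showed the opposite order, with 10.96% to 17.4% of the counts in WT livers and 6.87% to 11.5% under the KO label.

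**Figure D5:**
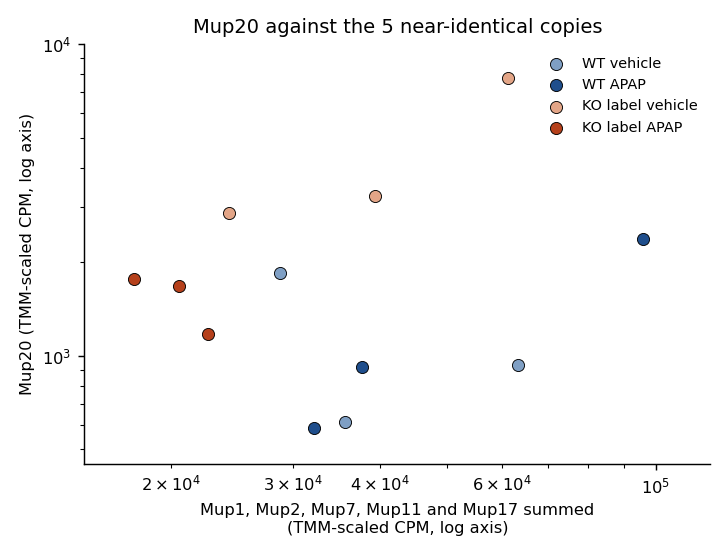
Each point is 1 liver, with the summed TMM-scaled CPM of Mup1, Mup2, Mup7, Mup11 and Mup17 on the horizontal axis and that of Mup20 on the vertical axis, both on log scales, colored by group. At a like level of the 5 copies, the 3 KO label vehicle livers have more Mup20 than WT vehicle replicates 1 and 3, and the 3 KO label APAP livers have the 3 lowest sums of the 5 copies.

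Over all 12 livers, with the label as a term, 0 of the 8 genes passed for APAP against vehicle, where 25.7% of 16112 genes did. None had an unadjusted p-value under 0.05 (37.4% of all genes). DESeq2's Wald test called 0 of the 8, and of all genes 2608 as higher and 2297 as lower. The median log2 fold change of the 8 was -0.29. Without WT APAP replicate 1, Mup7, Mup11 and Mup20 passed and the median was -0.60. In that fit 2135 of 16412 genes passed as lower and 2615 as higher. Whether APAP acted differently under the labels was tested as an interaction. The difference between the APAP effects, WT minus the KO label, was positive for all 8 genes, from 1.14 (SE 0.58) for Mup3 to 1.78 (SE 0.78) for Mup20 on the log2 scale, but none passed (edgeR adjusted p = 0.872 for each), and of 16509 genes 0 passed (0%). DESeq2's Wald test called 0 of the 8, and of all genes 7 with a positive difference and 2 with a negative one. At an unadjusted p-value under 0.05 in edgeR, Mup7, Mup20 and Mup21 passed, 3 of 8, against 5.14% of all genes. Without WT APAP replicate 1, KO vehicle replicate 3 or KO APAP replicate 3, 0 of 8 had such a p-value. The median difference of the 8 was 1.39, and 0.70 without WT APAP replicate 1. A difference of the APAP effect between the labels was thus not shown.

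The growth hormone pathway, on which Mup genes depend, was described with a list of 14 genes. Under the KO label, 2 of 14 were lower after APAP and 0 higher (median log2 fold change -0.23), where 9.60% of all genes were lower and 22.6% passed in either direction. Ghr, the growth hormone receptor, went from 315 ± 4.84 CPM (SD, n = 3) to 169 ± 28.4, a log2 fold change of -0.89 (SE 0.15, edgeR adjusted p = 0.00571). Igfals, which encodes the subunit that keeps IGF-1 in the circulation, had one of -1.23 (SE 0.21, edgeR adjusted p = 0.00571). In WT livers 0 of 14 passed by edgeR's test, where 2.05% of all genes did, with log2 fold changes of -0.65 for Ghr and -0.90 for Igfals. Over all 12 livers 4 of 14 passed, where 25.7% of all genes did, so the count was near that of the table: Ghr (-0.78), Igfals (-1.07) and the female-biased factor Cux2 (-2.86) were lower, and the kinase Jak2 (0.59) was higher. Prlr, the prolactin receptor, had a log2 fold change of -0.44 (edgeR adjusted p = 0.124).

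Other genes that male growth hormone pulses favor in the liver were listed as well. Of 12 tested under the KO label, 5 were lower and 1 was higher after APAP, with a median log2 fold change of -0.66, where 9.60% of all genes were lower and 22.6% passed in either direction. Slco1a1, an organic anion transporter, had a log2 fold change of -1.003 (SE 0.20, edgeR adjusted p = 0.0109), whereas Elovl3, a fatty acid elongase, rose by 1.39 (SE 0.27, edgeR adjusted p = 0.00967). The other 4 lower genes, Cyp7b1, Hsd3b5, Nudt7 and Selenbp2, were named after their values were seen. In WT livers Elovl3 alone passed, 1 of 13, where 2.05% of all genes passed, at a log2 fold change of 2.54 (SE 0.25, edgeR adjusted p = 0.00659). Over all livers Cyp4a12b (-0.62) was lower as well, while Cyp2d9 (-0.37) and Moxd1 (-3.62) did not pass.

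Of the female-biased growth hormone targets, 7 of 12 were tested and 0 passed under either label for APAP against vehicle, and over all livers Cyp3a44 alone was lower (log2 fold change -0.39, edgeR adjusted p = 0.0247). Of all genes, 22.6% passed for APAP against vehicle under the KO label, 2.05% in WT livers and 25.7% over all livers. Cyp2a4, a cytochrome P450 of this list, was higher in WT than in KO-labelled livers with vehicle (log2 fold change 4.08, SE 0.26, edgeR adjusted p = 0.00667). It was 1 of 8 tested there, where 0.0262% of all genes passed. With vehicle it was at 116 to 207 CPM in WT and 7.59 to 10.4 in KO-labelled livers. After APAP the labels overlapped, at 0.675 to 232 CPM in WT and 1.12 to 280 in KO-labelled livers. The receptors of thyroid hormone and glucocorticoids were listed with the factor Zhx2. None of these passed in any comparison, and over all livers the log2 fold change was -0.41 for the thyroid hormone receptor Thrb, -0.12 for Thra, -0.10 for the glucocorticoid receptor Nr3c1 and -0.26 for Zhx2. Among 10 other lipocalins tested, Lcn2, an acute phase protein named after its value was seen, was higher under the KO label after APAP and the rest did not pass. This was 1 of 10, where 22.6% of all genes passed in either direction. Among 18 abundant secreted hepatocyte proteins, 0 were lower and 1 was higher under the KO label (Fgb, a fibrinogen chain, named after its value was seen). Of all genes 9.60% were lower and 22.6% passed in either direction. The median log2 fold change of the 18 was -0.11. Alb, the albumin gene, had a log2 fold change of -0.09 (SE 0.23) there, and Trf, the transferrin gene, one of -0.31 (SE 0.17). Of the 6 hepatocyte markers, Cyp2e1 alone was lower under the KO label, 1 of 6, where 9.60% of all genes were lower. Its log2 fold change there was -0.92 (SE 0.22, edgeR adjusted p = 0.0221). In WT livers it had one of -1.18 (SE 0.23, edgeR adjusted p = 0.0502) and did not pass. Over all livers it passed at -1.06 (edgeR adjusted p = 2.76e-04), so its fall was not particular to the KO label. The blood and leukocyte markers had a median log2 fold change of -0.50 under the KO label, where 0 of 9 passed by edgeR's test (22.6% of all genes). They ran from -0.88 to 2.15 and did not share a direction. The hemoglobin genes Hba-a1 (-0.50) and Hbb-bs (-0.41) were below 0. S100a8 (2.15) and S100a9 (1.66), with at most 78 and 170 counts in the KO-labelled APAP livers, were above 0. In WT livers 0 of 10 passed (2.05% of all genes). Apart from WT APAP replicate 1 the sum of these markers was 398 and 298 CPM with APAP, against 252 to 333 with vehicle. Their part in the Mup values was not tested.

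The genes outside the family whose levels over the 12 livers were most like the summed 8 genes were Mtch2, Ugt2b5, Apom, Tmem37 and Rab9, with Pearson's r of 0.90, 0.89, 0.89, 0.88 and 0.88 on log2 CPM among 3340 genes with a mean log2 CPM of at least 5. Without WT APAP replicate 1 these were 0.83, 0.82, 0.80, 0.81 and 0.81. Apom is itself a lipocalin, carried on high-density lipoprotein, and Ugt2b5 encodes a glucuronosyltransferase. None of the 5 passed in any comparison, and under the KO label Apom had a log2 fold change of -0.49 (SE 0.19, edgeR adjusted p = 0.0989). The genes were picked as the highest of many correlations over livers that share a scaling, so r is a description.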

How the data were processed

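RNA of 12 mouse livers was sequenced after poly(A) selection with a stranded kit (TruSeq Stranded mRNA). The authors aligned reads to the mouse genome (mm10) and deposited a table with a count, an FPKM value (scaled by transcript length and depth) and a TPM value for each gene and liver. The submitters' processing notes name FastQC 0.11.7, Trimmomatic 0.38, HISAT2 2.1.0, Bowtie2 2.3.4.1 and StringTie 2.1.3b. Whether counting used the strand, and how reads that match several copies were split, is not given in the sources used here. Deposited counts were whole numbers and the FPKM values entered no test. All per-sample columns were assigned to a liver by name, and 0 were left out.

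Counts were tested with edgeR 4.0.16 (R 4.3.3; quasi-likelihood, TMM scaling, filterByExpr, Benjamini-Hochberg adjustment over all genes tested, threshold 0.05). This count model replaced the study's test on quantile-normalized log TPM, which was kept as an alternative in limma 3.58.1 with pseudocounts of 1 and 0.1. The 4 comparisons of 3 against 3 livers used only their 6 livers, while the effect over all 12 livers and the interaction used all. Other alternatives were DESeq2 1.42.0 (size factors or Wald test), no filter, at least 10 counts in every liver, Mup rows left out of the scaling, 1 fit of all livers, the replicate number as a block and leaving out each liver. The fits were tested on simulated data. P-values measure the spread between these livers. TMM factors were 0.892 to 1.13, and 0.750 in WT APAP replicate 1.

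The 8 genes and the gene lists were chosen with earlier results of these data known. Named were the 8 genes, from each of 9 lists at most 5 tested genes with the smallest unadjusted p over all 12 livers, and the 5 genes most like the summed family, and 1 listed gene is not reported here. Coding sequences came from GENCODE M21 (GRCm38) and promoters and gene coordinates from RefSeq (GRCm38.p6). Same-numbered livers of different groups did not deviate together.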

Additional observations from a re-analysis of the deposited data

How the results depend on the processing

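The number of the 8 Mup genes called for APAP against vehicle under the KO label was 6 with DESeq2's Wald test, 0 with all 12 livers in 1 fit and 0 to 7 with 1 liver left out. Of all genes, 1997, 844 and 734 to 1401 passed as lower in these fits. Between WT and KO-labelled APAP livers the number of the 8 called was 1 with the Wald test, where 21 of all genes passed as higher and 8 as lower. Over all livers it was 0 to 3 with 1 liver left out, where 1309 to 2135 of all genes passed as lower. The mean share of the 8 genes became 8.49%, 9.47%, 9.40% and 5.80% (WT vehicle, WT APAP, KO vehicle and KO APAP) in TPM. With all 30 Mup rows the mean share, in the same order, was 10.9%, 12.3%, 11.3% and 6.27% of the counts. In TPM it was 19.3%, 20.2%, 19.7% and 11.7% with all Mup rows. With limma on quantile-normalized TPM, under either pseudocount, the log2 fold change of Mup3 turned to 0.026 under the KO label and to -0.17 between WT and KO-labelled APAP livers, and that of Mup1 over all livers to 0.062. The cause was not tested.

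With 1 liver left out, log2 fold changes that crossed 0 in WT livers ran from -0.18 to 0.90 for Mup1, -0.23 to 0.81 for Mup2, -0.31 to 0.72 for Mup7, -0.49 to 0.61 for Mup11, -0.25 to 0.76 for Mup17, -0.59 to 0.75 for Mup20 and -0.019 to 0.83 for Mup21. Under the KO label Mup3 ran from -0.73 to 0.0025. Between WT and KO-labelled APAP livers Mup20 ran from -1.03 to 0.12. With vehicle, Mup1 ran from -0.20 to 0.65, Mup2 from -0.25 to 0.68, Mup3 from -0.74 to 0.011, Mup11 from -0.53 to 0.22, Mup17 from -0.0035 to 0.96 and Mup21 from -0.83 to 0.34. Over all livers Mup1 ran from -0.58 to 0.079, Mup2 from -0.60 to 0.019, Mup3 from -0.27 to 0.33 and Mup21 from -0.55 to 0.23. The calls of Mup11, Mup20 and Mup7 under the KO label held in 13, 12 and 8 of 15 alternatives. With 3 livers a group, 1 liver could end each of these calls. What depth or reads shared between copies limit was not tested.

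The replicate numbers did not pair the livers: over 18 same-numbered pairs the correlation of deviations was -0.26 to 0.11, with 1 pair over 0.1 and 0 of 12 livers closest to their own number. With the replicate block 2 of the 8 genes (Mup11 and Mup20) were called under the KO label and 0 in the other comparisons. Of 15665 genes tested under the KO label, 1165 passed as lower with that block.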

Other observations

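WT vehicle replicate 2 differed from the other 5 WT livers in the make-up of its Mup counts. Of the counts on the 8 genes, Mup1 took 19.0% in this liver, 23.6% to 25.6% in the other 5 WT livers and 14.6% to 19.6% in the 6 livers labelled KO. Mup2 took 7.51%, against 9.16% to 10.3% and 5.93% to 8.05%, and Mup17 took 10.96%, against 13.2% to 17.4% and 6.87% to 11.5%. Mup20 took 4.74%, against 1.33% to 2.05% and 3.77% to 9.11%. For these 4 genes the liver thus lay within the range of the KO-labelled livers and outside that of the other WT livers. Mup1, Mup2 and Mup17 are near-identical copies, and all shares are parts of 1 total, so these are not separate measurements. For Mup11 (12.4%) and Mup21 (1.24%) the liver lay within both ranges. For Mup3 and Mup7 the ranges of the other WT and the KO-labelled livers overlapped as well. The Gna12 count of this liver was 1659, against 2472 to 4003 in the 6 livers labelled KO. These shares were compared after the values were seen and carry no test. WT vehicle replicate 2 also had 582425 Fgb counts, the highest of all livers, against 115876 and 114039 in the other WT vehicle livers. Its S100a8 had 154 counts, against 0 and 4 there, and its S100a9 had 351, against 6 and 4. What this means for its Mup values was not tested.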
